A study of Mus musculus with 12 samples.

Results

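The mitochondrial genome was followed through 12 RNA-seq libraries of mouse colon. Its members were all genes that the annotation places on the mitochondrial chromosome of GRCm38, 37 of the 48448 genes with a deposited transcript. They comprise 13 protein-coding genes, 2 ribosomal RNA (rRNA) genes and 22 transfer RNA (tRNA) genes, and the choice used position alone, not their levels. Values are FPKM, fragments scaled to transcript length and to the library's total. They are relative: a value also moves with what else a library holds.

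The libraries came from the colon of C57BL/6 mice in a model of colitis-associated cancer, in 4 groups of 3. Flox mice carry a floxed allele of Synbindin, the product of Trappc4, a component of the TRAPP complexes of vesicle transport, and served as controls. In ΔIEC mice Synbindin is deleted in intestinal epithelial cells. Each genotype gave 3 libraries of tumour and 3 of adjacent colon. The Cre driver of the deletion, the agents that induced tumours, and the ages and sexes of the mice are given in none of the sources used here. The labels call the adjacent samples epithelium and the protocol describes dissected tumours and adjacent tissue. They do not say whether the libraries of a group are separate animals, so a p-value covers only the variation among these libraries. The descriptions carry a code, which 3 flox and 2 ΔIEC tumours share with the adjacent library of their number, and what it marks is not stated.

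Mammalian mitochondrial DNA is a small circle that is read from both strands into long precursor RNAs. The tRNAs lie between most of the other genes, and their removal releases the rRNAs and the messenger RNAs. All of its proteins are subunits of the respiratory chain: the mt-Nd genes belong to complex I (NADH dehydrogenase), mt-Cytb to complex III, the mt-Co genes to complex IV (cytochrome c oxidase), and mt-Atp6 and mt-Atp8 to complex V (ATP synthase). The rest of each complex is encoded in the nucleus. Stretches of mitochondrial DNA have also been copied into nuclear chromosomes during evolution, and reads from such a copy can carry the same letters as reads from the mitochondrion. In the colon, absorptive colonocytes are rich in mitochondria and oxidise butyrate.

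The nuclear copies come before the values because they differ strongly between the members. Of the annotated nuclear transcripts, those of 11 genes matched a mitochondrial gene over at least 100 bases at 95% identity or more. A cluster of 7 pseudogenes on chromosome 1 (chr1:24611535-24616197, minus strand) follows the order and spacing of mitochondrial positions 6390 to 11042, from the end of mt-Co1 to mt-Nd4. Within it Gm28661 matched mt-Co2 over 681 bases at 100% identity. Gm28437 matched mt-Co3 over 783 bases, also at 100%, and Gm10925 matched mt-Atp6 over 678 bases without a difference. Gm13340 on chromosome 2 matched mt-Co1 over its whole 1545 bases at 97.6% identity, with 37 mismatches. The starts of both coding genes, with the copy beneath each, show how much letters alone can tell them apart. Sequences are from GENCODE M21 on GRCm38, 5′ to 3′, and capitals mark the 3 positions at which mt-Co1 and Gm13340 differ.
mt-Co2, chrM:7013-7132: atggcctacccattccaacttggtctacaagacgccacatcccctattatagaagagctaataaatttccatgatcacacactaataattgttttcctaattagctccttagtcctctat
Gm28661, chr1:24615446-24615565, minus strand: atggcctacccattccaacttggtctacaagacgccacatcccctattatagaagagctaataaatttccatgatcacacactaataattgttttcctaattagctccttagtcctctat
mt-Co1, chrM:5328-5447: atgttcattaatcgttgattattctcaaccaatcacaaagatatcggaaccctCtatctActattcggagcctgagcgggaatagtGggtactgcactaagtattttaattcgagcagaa
Gm13340, chr2:22589528-22589647, minus strand: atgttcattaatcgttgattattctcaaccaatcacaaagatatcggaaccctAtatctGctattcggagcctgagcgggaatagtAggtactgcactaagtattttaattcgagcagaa

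Genes of the mitochondrial chromosome also overlap each other. The longest overlap joins mt-Atp8 and mt-Atp6 over 43 bases on the same strand; mt-Nd4l and mt-Nd4 share 7, and mt-Nd5 and mt-Nd6 share 14 on opposite strands. The overlap of the ATP synthase genes is shown with the start codon of mt-Atp6 and the stop codon of mt-Atp8 in capitals, since a read within it fits both genes.
mt-Atp8 and mt-Atp6, chrM:7927-7969: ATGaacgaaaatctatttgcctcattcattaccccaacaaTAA

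The 13 coding genes fell into 2 ranges of FPKM that lay far apart in every library. In the upper range, mt-Co1, the core subunit of cytochrome c oxidase, had the highest mean over 12 libraries at 10061 FPKM. It was followed by mt-Cytb at 2249.7, mt-Nd1 at 1957, mt-Nd6 at 1166, mt-Nd5 at 1074, mt-Nd4 at 914 and mt-Nd2 at 849 FPKM. The lower range held mt-Atp6 at 25.1, mt-Atp8 at 14.6, mt-Co2 at 7.81, mt-Nd4l at 7.71, mt-Co3 at 6.97 and mt-Nd3 at 1.80 FPKM. These 6 genes together gave 0.219% to 0.528% of the FPKM sum of the 13 in a library, although mt-Co2 and mt-Co3 encode the other core subunits of the same complex as mt-Co1. The ratio of mt-Co1 to mt-Co2 ranged from 998 to 1872. The split into 7 and 6 genes was made after the values were seen.

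The 6 genes of the lower range are neighbours, and they lie within the stretch that is copied on chromosome 1. For each gene the share of its 50-base windows with an exact copy in an annotated nuclear transcript was counted. That share was 100% for mt-Co2, 99.9% for mt-Co3, 99.5% for mt-Atp6, 98.8% for mt-Nd4l and 98.0% for mt-Nd3. In the upper range it was 62.2% for mt-Nd4, 51.1% for mt-Co1, 8.19% for mt-Nd2 and 7.61% for mt-Nd5, and 0% for mt-Nd1, mt-Nd6 and mt-Cytb. mt-Atp8, in the lower range, also had 0%. Gm10925 matches its last 43 bases, those shared with mt-Atp6, which is less than a window. The rest of mt-Atp8 lies within the 233 bases that separate the copied parts of mt-Co2 and mt-Atp6, where no annotated transcript covers the matching place. Gm28661 and Gm10925 on chromosome 1 are 233 bases apart as well. How reads with more than a single possible origin were assigned is not given in the sources used here, and the part of shared sequence in the low values was not tested. Levels of the 5 lower-range genes with exact copies, and of mt-Co1 and mt-Nd4 to a lesser extent, are therefore uncertain. For mt-Atp8 no such copy was found, but sequence outside annotated transcripts was not searched, and its low level is uncertain too.

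**Figure D1:**
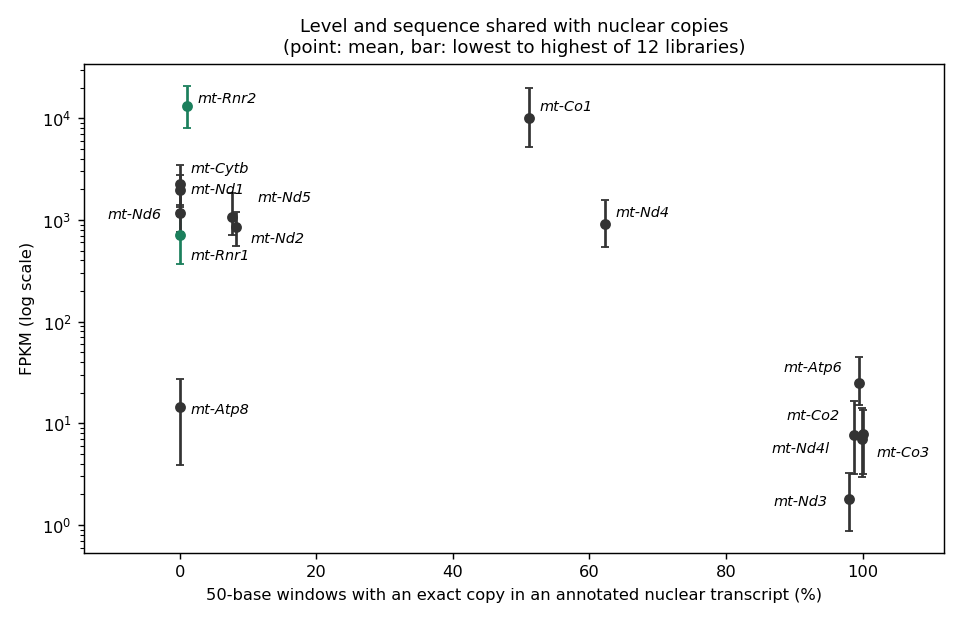
FPKM (log axis; point, mean; bar, lowest to highest of 12 libraries) of the 13 coding genes (black) and 2 rRNA genes (green) against the percentage of 50-base windows with an exact copy in an annotated nuclear transcript. The 5 coding genes above 90% lie between 1.80 and 25.1 FPKM with mt-Atp8 (0%, 14.6 FPKM), and the other 7 coding genes lie at 849 FPKM or more.

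The nuclear copies were themselves listed at low levels. Gm13340 was the highest at a mean of 33.4 FPKM over 12 libraries, then Gm29216, a copy of the end of mt-Co1, at 22.8, and Gm28437 at 20.5 FPKM. Gm28661 stood at 14.1, 13.4 and 20.97 FPKM in flox adjacent tissue and at 6.19, 6.30 and 10.9 in flox tumours, above mt-Co2 itself in each of these 6 libraries. Beside mt-Co1 at 10061 FPKM, its copy with 37 mismatches was a small fraction. Beside mt-Co2, at 7.81 FPKM, its identical copy Gm28661 (13.1) was the larger of the pair. Identical Gm28437 (20.5) and Gm10222 (9.76) were likewise above mt-Co3 (6.97) and mt-Nd4l (7.71). Identical Gm10925 (14.03) was below mt-Atp6 (25.1), and Gm28439, identical over 876 bases, stood at 3.94 beside 914 for mt-Nd4. Gm13341, with 16 mismatches to mt-Co2, stood at 16.9, above mt-Co2. These are means over 12 libraries, and the part of identity was not tested.

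Among the non-coding members, mt-Rnr2, the rRNA of the large subunit of the mitochondrial ribosome, was the most abundant mitochondrial transcript. It ranged from 7967 to 20739 FPKM. mt-Rnr1, the rRNA of the small subunit, ranged from 367 to 1085 FPKM, and the ratio between them lay between 14.6 and 26.2. Whether the libraries were made after poly(A) selection or rRNA depletion is not given in the sources used here. Both rRNAs had almost no sequence in common with annotated nuclear transcripts (1.04% of windows for mt-Rnr2, 0% for mt-Rnr1).

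Of the 22 tRNAs, 59 to 75 bases long, 20 were listed at 0 in all 12 libraries. mt-Tm, the tRNA for methionine, was listed above 0 in 5 libraries: at 2882 and 4639 FPKM in flox adjacent tissue, 3043 in ΔIEC adjacent tissue, 2714 in a flox tumour and 1500.5 in a ΔIEC tumour. mt-Tp, the tRNA for proline, was above 0 in 1 library alone, ΔIEC adjacent 3, at 3707 FPKM. These jumps between 0 and 1500.5 FPKM or more do not follow the groups, and transcripts shorter than a usual fragment are poorly measured in such libraries. The sequence of mt-Tm shows how short the measured molecule is, with its anticodon in capitals.
mt-Tm, chrM:3845-3913: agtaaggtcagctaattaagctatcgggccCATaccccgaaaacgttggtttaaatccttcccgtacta

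Genes with at least 1 FPKM in 3 or more libraries were tested, 16970 in all. Among the members 16 of 37 passed, namely the 13 coding genes, both rRNAs and mt-Tm. Differences were fitted with limma on log2(FPKM + 1), with two-sided p-values adjusted over all tested genes by the Benjamini-Hochberg method. Genes with an adjusted p under 0.05 are referred to as called, and "rose" and "fell" are used of called genes alone. mt-Tm was not called in any comparison.

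Facts on the libraries as a whole bear on all that follows. The depth is unknown, since FPKM values carry none. Adjacent tissue had Trappc4 at 16.8 to 17.3 FPKM in flox and 10.2 to 12.6 in ΔIEC mice, and tumours had it at 17.5 to 20.9 and 9.91 to 12.7; groups did not overlap in either tissue (exact permutation test, two-sided p = 0.1 in each, the smallest that 3 against 3 allows). Its limma adjusted p was 0.931 in adjacent tissue and 1 in tumours. Epithelial markers were present throughout (mean log2(FPKM + 1) of 10 genes, 8.001 to 9.21), and none of them was at 0. Markers of fibroblasts (2.65 to 5.28), smooth muscle (1.64 to 4.51), leukocytes (1.59 to 3.54) and plasma cells (3.901 to 6.60) were present as well. ΔIEC adjacent 2 and 3 stood apart from the other adjacent libraries, with leukocyte markers at 3.08 and 3.54 against 1.59 to 2.09 and plasma cell markers at 6.60 and 6.16 against 4.64 to 5.005. Not every member was higher there. Sdc1 was lower, at 71.6 and 56.9 FPKM against 77.9 to 116. Cd8a (1.18 and 2.12) lay within the range of the others (0.796 to 3.57), as did Cd3e in ΔIEC adjacent 2 (3.15, within 1.36 to 5.11). The remaining members of both lists were higher in both libraries. Flox tumours 1 and 2 stood apart by markers of squamous epithelium, at 4.28 and 4.77 against 1.13 to 2.02 in the other tumours, and 5 of those 7 genes were at 0 in at least 1 of the 12 libraries. Krt4 was lower in flox tumour 1 (2.14 FPKM) than in ΔIEC tumours 1 and 2 (3.23 and 6.38). Sprr3 was above 0 in flox tumour 2 alone (1.44). The remaining squamous markers were higher in both flox tumours. The 7 markers of absorptive colonocytes ranged from 7.76 to 9.20 in adjacent tissue and from 3.79 to 5.25 in tumours, and the 5 neutrophil markers from 0.60 to 1.08 and from 3.80 to 5.78. Malat1 and Neat1, RNAs retained in the nucleus, averaged 9.56 to 10.7. The part of cell make-up in any mitochondrial difference was not tested, and fewer mitochondrion-rich cells cannot be told apart from less mitochondrial RNA per cell in bulk tissue.

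Mitochondrial messenger RNAs made up a larger share of adjacent tissue than of tumours. The 13 coding genes gave 3.11%, 3.63% and 3.64% of the summed FPKM in the flox adjacent libraries and 2.04%, 2.03% and 2.16% in the flox tumours. In ΔIEC mice they gave 3.99%, 2.33% and 2.76% in adjacent tissue and 2.56%, 2.12% and 1.94% in tumours. The flox groups did not overlap, whereas the highest ΔIEC tumour exceeded the lowest ΔIEC adjacent library. The lowest adjacent shares were those of ΔIEC adjacent 2 and 3, the libraries with the highest leukocyte and plasma cell markers; ΔIEC adjacent 1 had the highest share of the 12 and the lowest leukocyte markers. These shares are descriptions without a test.

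**Figure D2:**
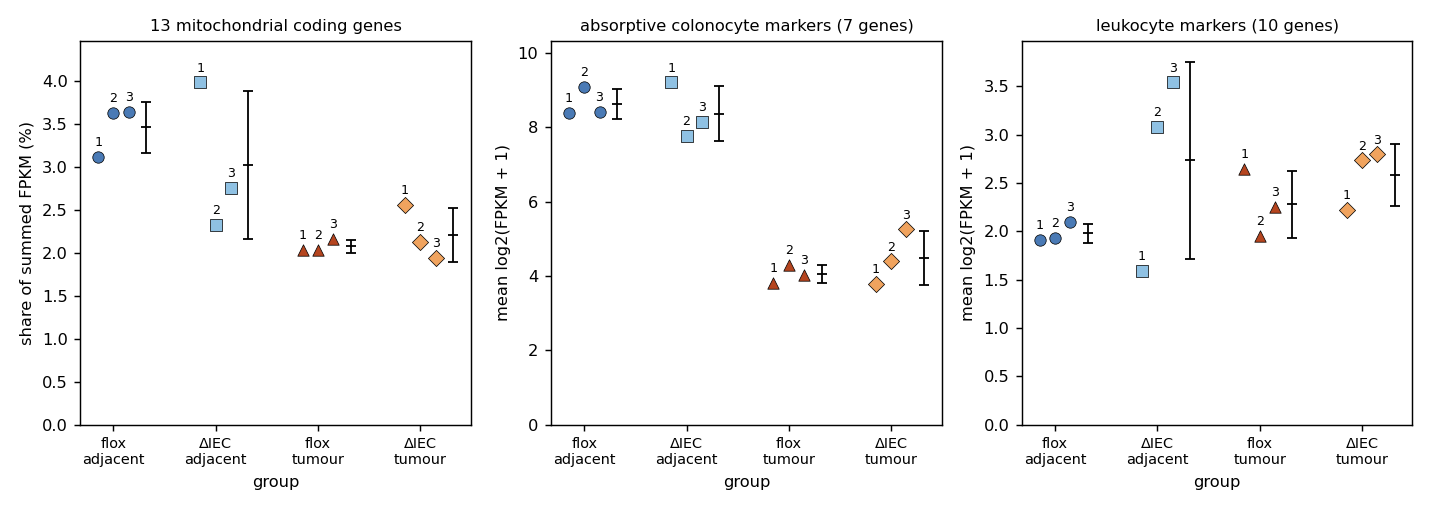
Share of summed FPKM from the 13 mitochondrial coding genes (left, %) and mean log2(FPKM + 1) of 7 absorptive colonocyte and 10 leukocyte markers (middle, right) in each library, numbered 1 to 3, with mean and SD (n = 3) beside each group. ΔIEC adjacent 2 and 3 have the lowest mitochondrial shares of adjacent tissue (2.33% and 2.76%) and the highest leukocyte markers (3.08 and 3.54).

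In flox mice, mitochondrial transcripts fell in tumours. All 13 coding genes were lower on average in tumours than in adjacent tissue, although mt-Nd1 (0.03, quantile normalization) and mt-Atp8 (0.34 and 0.39, 2 rescalings) changed sign under other scalings. By the test 9 of the 13 fell, and both rRNAs fell too. Of all tested genes 36.3% were called in this comparison, 19.7% in the lower direction. The median log2 difference over the coding genes was −0.90, against −0.01 over all genes tested. For 11 of the 13 every tumour library was below every adjacent library; over all tested genes that held for 27.1%.

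The complex IV gene mt-Co1 had the largest difference of the 13 as deposited. It was at 11620.0, 17205 and 16249 FPKM in flox adjacent tissue and at 5323, 5565 and 6137 FPKM in flox tumours. The tumours were alike and lay far under the adjacent libraries, a 2.61-fold fall (log2 difference −1.39, SE 0.28, adjusted p = 0.00430). With quantile normalization it was at −0.53 and not called (limma adjusted p = 0.183), behind at least mt-Co2, mt-Co3 and mt-Nd3 (−0.81). That normalization gives each rank the same value in every library. It can leave little difference among the highest ranks, where mt-Co1 lies, so it cannot decide whether mt-Co1 differed. Its neighbours in the lower range fell as well, mt-Co2 from 10.5 ± 2.41 to 4.65 ± 1.496 FPKM (SD, n = 3; −1.04, limma adjusted p = 0.0186) and mt-Co3 from 9.14 ± 2.94 to 4.06 ± 1.63 (−1.01, limma adjusted p = 0.0490). The call of mt-Co3 was lost when any of flox adjacent 2 or 3 or flox tumours 1 or 2 was left out, and that of mt-Co2 without flox adjacent 3 or flox tumour 1.

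mt-Cytb, the mitochondrially encoded subunit of complex III and a gene with no exact nuclear copy, was at 3125, 3122 and 2249 FPKM in flox adjacent tissue. In flox tumours it was at 1485, 1569.8 and 1388 FPKM. All 3 tumours were lower, a 1.89-fold fall (log2 difference −0.92, SE 0.18, limma adjusted p = 0.00392). Its call was lost with quantile normalization (−0.21, limma adjusted p = 0.113) and with all genes but small RNAs at a common total (−0.45, limma adjusted p = 0.0804).

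Among the complex I genes, 5 of 7 fell. mt-Nd5 was at 1348, 1539 and 1219 FPKM in flox adjacent tissue and at 723, 754 and 718 in flox tumours (−0.90, limma adjusted p = 0.00936). mt-Nd4 went from 1157 ± 220.2 to 597 ± 47.3 FPKM (SD, n = 3; −0.94, limma adjusted p = 0.00658) and mt-Nd2 from 1025 ± 196 to 606 ± 42.4 (−0.74, limma adjusted p = 0.0170). mt-Nd6 is the only coding gene transcribed from the other strand, the light strand in the usual naming, against 12 of the heavy strand. It was at 1358, 1607 and 1622 FPKM and fell to 767, 795 and 869.6, a difference of −0.91 (limma adjusted p = 0.0102) close to the median of the 13. mt-Nd1 fell least of the 7 genes of the upper range, from 2360.1 ± 170.0 to 1444 ± 115 FPKM (SD, n = 3; −0.71, limma adjusted p = 0.0287). Its call ended when any of the 6 libraries was left out (adjusted p 0.05004 to 0.0853), and that of mt-Nd2 without flox adjacent 1 or 2 or flox tumour 3 (up to 0.0617).

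The other 4 coding genes did not pass the test, and all belong to the lower range. mt-Atp6 was at 25.8, 31.2 and 30.6 FPKM in adjacent tissue and 16.2, 16.9 and 19.6 in tumours, without overlap (−0.70, limma adjusted p = 0.128). mt-Nd4l (−0.69, adjusted p = 0.126) also separated the groups, and mt-Nd3 (−0.66, adjusted p = 0.0602) did not. These results depend on the setting. In a fit to the flox groups alone mt-Atp6 and mt-Nd4l were called (limma adjusted p = 0.00667 and 0.0167), with 11 coding genes and 37.2% of all genes called. mt-Nd3 was called with quantile normalization (limma adjusted p = 0.0373) and without flox adjacent 1 (0.0397) or flox tumour 2 (0.0218). mt-Atp8 was at 15.5, 3.91 and 13.4 FPKM in adjacent tissue and 4.73, 12.6 and 13.1 in tumours. Its libraries overlapped (−0.03, 95% confidence interval −1.31 to 1.25, adjusted p = 0.974).

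The rRNAs moved like the messenger RNAs. mt-Rnr2 was at 17179.6, 19585 and 16201 FPKM in flox adjacent tissue and at 7967, 8101 and 9937 FPKM in flox tumours (−1.03, SE 0.22, limma adjusted p = 0.00617). mt-Rnr1 was at 1085, 1035 and 619 FPKM against 367, 422 and 523 (−1.03, SE 0.30, limma adjusted p = 0.0242). Neither rRNA overlapped between the groups, and the call of mt-Rnr1 was lost without flox adjacent 1 or 2 or without flox tumour 1 or 2 (up to 0.0854). With quantile normalization neither was called (−0.53 for mt-Rnr2 and −0.59 for mt-Rnr1). For mt-Rnr2, high in every library, that result is limited by rank as for mt-Co1.

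How far these values are called depends on the scaling of the libraries. The summed FPKM of a library was 694585 to 782804 in flox adjacent tissue and 534806 to 562788 in flox tumours. When nuclear protein-coding genes were brought to a common total, the median of all genes moved to 0.33 and that of the coding genes to −0.48, with 5 of the 13 called. When all genes but small RNAs were brought to a common total, the medians were 0.38 and −0.42, with 1 called. Over all genes the calls split into 2817 higher and 3346 lower as deposited, but into 6254 and 1770 and then 6052 and 1516 at these scalings. With 1516 of 16970 genes lower at the last, 1 of 13 is close to the background. Relative to the median of all genes, the coding genes stood at −0.89 as deposited and at −0.81 and −0.80 after rescaling. A common factor per library can hardly change this difference, so its stability there is no evidence. With quantile normalization it was −0.49. Quantile normalization left the median of all genes at 0.01 and gave a coding median of −0.48 and 5 calls. Over all genes 2982 were called lower in that fit. Without flox tumour 1 or 2, the libraries with squamous markers, 6 and 8 coding genes were called, beside 26.7% and 28.0% of all genes.

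In ΔIEC mice, 2 of the 13 coding genes fell in tumours, mt-Co1 and mt-Nd4, and neither rRNA was called. The median over the coding genes was −0.47, against −0.03 over all genes tested, and 12 of the 13 had a lower mean, which became 8 with quantile normalization and 9 with either rescaling. Of all tested genes 29.4% were called, 15.5% in the lower direction, so 2 of 13 is close to the background. Every tumour was below every adjacent library for 3 of the 13, where 22.9% of all genes showed this. The ΔIEC adjacent libraries were spread most widely, with an SD of the coding FPKM sum of 8819 against 469 to 2999 in the other groups.

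mt-Co1 was at 19719.8, 8565 and 10914 FPKM in ΔIEC adjacent tissue and at 7718, 5234 and 6476 FPKM in ΔIEC tumours. ΔIEC adjacent 1 and ΔIEC tumour 1, which do not share a description code, were each the highest of their group. The groups did not overlap (−0.94, SE 0.28, limma adjusted p = 0.0302). With quantile normalization the difference was −0.0717 (limma adjusted p = 0.876), which the high rank of mt-Co1 in every library limits by construction. mt-Nd4 was at 1556, 877 and 1064 against 793, 667 and 742 FPKM (−0.63, limma adjusted p = 0.0436), and its difference was −0.26 with quantile normalization (limma adjusted p = 0.136). The third gene without overlap was mt-Cytb, at 3494, 2161 and 2569.8 against 2090.4, 1799 and 1944 FPKM (−0.47, limma adjusted p = 0.0766). mt-Nd1 was nearly level, at 2785, 1566 and 1837 FPKM in adjacent tissue and 2416, 1493 and 1973 in tumours (−0.06, 95% confidence interval −0.54 to 0.43). mt-Rnr1 was at 962, 442 and 849 FPKM against 901, 698 and 676 (0.08, −0.60 to 0.76), and mt-Rnr2 differed by −0.34 (−0.84 to 0.16).

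These counts rest on single libraries. Without ΔIEC adjacent 2, which had high leukocyte and plasma cell markers, 6 coding genes fell and the median was −0.65. Of all genes 29.9% were called in that fit. Without ΔIEC adjacent 1, ΔIEC tumour 2 or ΔIEC tumour 3 no coding gene was called. Without ΔIEC adjacent 3 there was 1, and without ΔIEC tumour 1 there were 2, mt-Co1 and mt-Nd4l. With all genes but small RNAs brought to a common total the coding median was −0.18 and 0 were called, and the calls over all genes went from 2357 higher and 2624 lower to 3325 and 1327. With nuclear protein-coding genes at a common total these were 4320 and 1496.

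**Figure D3:**
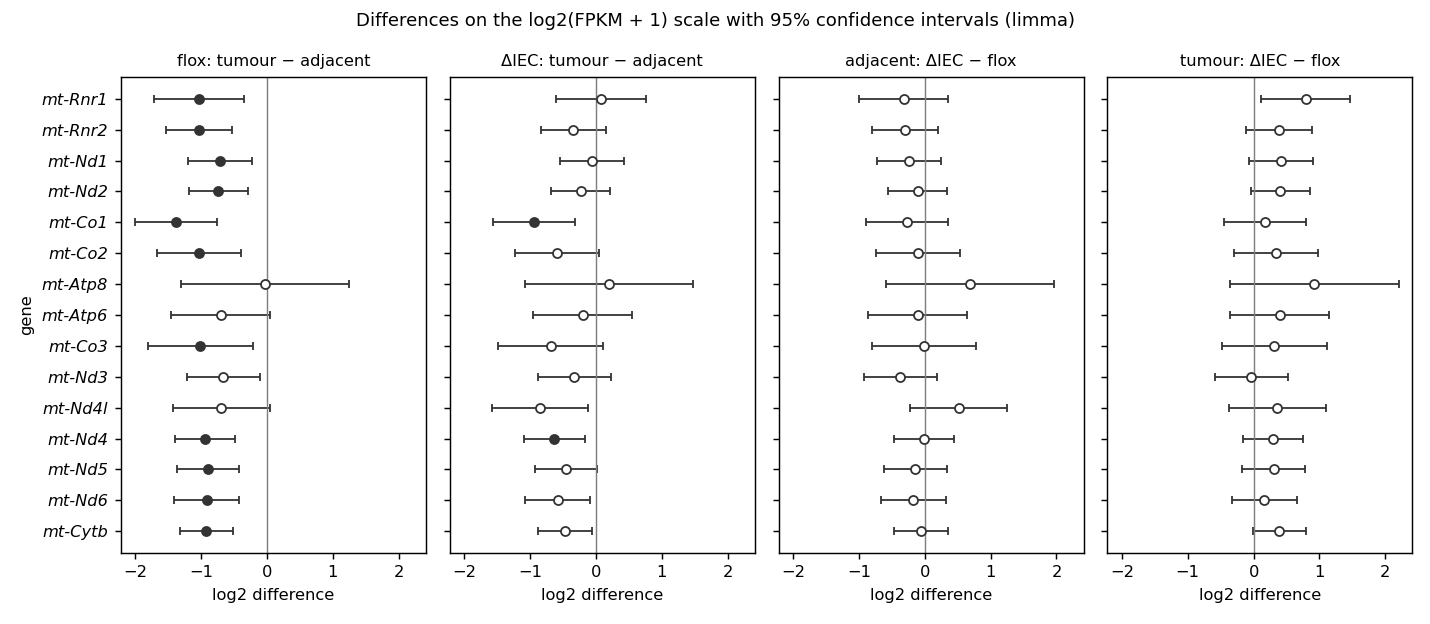
Log2 differences with 95% confidence intervals (limma) for the 2 rRNA and 13 coding genes in 4 comparisons; filled points are called (adjusted p under 0.05). The 11 filled points in flox tumours include both rRNAs, ΔIEC tumours have filled points for mt-Co1 and mt-Nd4, and the 2 genotype panels have none.

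The genotypes were compared within each tissue. In adjacent tissue the mitochondrial genes of ΔIEC and flox mice overlapped in all 15 rRNA and coding genes, where 2.56% of all genes had every ΔIEC library above and 5.14% every ΔIEC library below the flox libraries. The coding median was −0.11, from −0.37 for mt-Nd3 to 0.69 for mt-Atp8. No coding gene was called and none had an unadjusted p under 0.05; over all 16970 genes limma called 0 (0%), with 702 at an unadjusted p under 0.05. mt-Cytb averaged 2832 ± 505 FPKM for flox and 2742 ± 683 for ΔIEC mice (SD, n = 3; −0.06, 95% confidence interval −0.46 to 0.35, limma adjusted p = 0.974). For mt-Co1 the interval ran from −0.89 to 0.35 around −0.27. Direction here turned on a single library: without ΔIEC adjacent 2 the coding median was 0.10, and without ΔIEC adjacent 1 it was −0.33.

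In tumours 12 of the 13 coding genes had a higher mean in ΔIEC than in flox mice, with a median of 0.35, and 0 were called. Over all genes limma again called 0 (0%), with 317 at an unadjusted p under 0.05, none of them a coding gene. The rRNA gene mt-Rnr1 was among the 317 (limma unadjusted p = 0.0256). All 3 ΔIEC tumours lay above all 3 flox tumours for 4 coding genes (mt-Nd2, mt-Nd4, mt-Nd5 and mt-Cytb) and for both rRNAs, an order that 3.03% of all tested genes showed. No coding gene had the opposite order, which 3.74% of all genes showed. mt-Nd2 was at 617, 641 and 559 FPKM in the flox tumours and at 983, 688 and 755 in those of ΔIEC mice (0.40, 95% confidence interval −0.05 to 0.85). The largest difference outside mt-Atp8 (0.92) was that of mt-Rnr1, at 367, 422 and 523 FPKM in flox and 901, 698 and 676 in ΔIEC tumours, 1.73-fold higher (0.79, SE 0.30, limma adjusted p = 1). Markers moved too: the mean of the squamous markers was high in flox tumours 1 and 2 alone, with Krt4 and Sprr3 as the exceptions given above. Without each of these tumours in turn the coding median was 0.30 and 0.36. Bringing all genes but small RNAs to a common total lowered it to 0.22, as the median of all genes went to −0.14.

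Whether tumour and adjacent tissue differed by unequal amounts in the 2 genotypes was tested as an interaction. The difference between tumour and adjacent tissue was higher in ΔIEC than in flox mice for 12 of the 13 coding genes, with a median of 0.44. By limma 0 of 13 and 0 of 16970 genes (0%) were called, with 448 of all genes and 0 coding genes at an unadjusted p under 0.05. The rRNA gene mt-Rnr1 was among the 448 (limma unadjusted p = 0.0270). Among rRNA and coding genes mt-Rnr1 had the largest value (1.11, SE 0.43, limma adjusted p = 1), then mt-Rnr2 (0.69, 95% confidence interval −0.01 to 1.39) and mt-Nd1 (0.65, −0.03 to 1.34). mt-Nd4l went the other way (−0.16, −1.20 to 0.88). A difference between the genotypes in the tumour change was therefore not shown, and the median of 0.44 became 0.17 without ΔIEC adjacent 2.

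The balance among the mitochondrial messenger RNAs also differed between tissues. mt-Co1 made 51.9% to 64.2% of the coding FPKM sum in the 6 adjacent libraries and 45.3% to 51.9% in the 6 tumours. mt-Nd1 made 8.51% to 10.9% in adjacent tissue and 12.3% to 14.9% in tumours, without overlap. The ratio of mt-Co1 to mt-Nd1 was 4.76, 6.96 and 7.51 in flox and 7.08, 5.47 and 5.94 in ΔIEC adjacent tissue; it was 3.99, 3.88 and 3.93 in flox and 3.19, 3.51 and 3.28 in ΔIEC tumours. mt-Nd2 stood below mt-Nd4 in all 6 adjacent libraries (ratio 0.777 to 0.932) and above it in all 6 tumours (1.01 to 1.24). Such ratios within a library do not change when all its values are multiplied by a common factor, but quantile normalization can change them. In addition, mt-Co1 and mt-Nd4 share sequence with nuclear copies. The ratios were picked after the values were seen and carry no test. The order at the ends was the same in all 12 libraries: mt-Co1 highest, mt-Atp6 eighth and mt-Nd3 lowest.

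The nucleus encodes the partners of these genes, and lists of them were described in the same fit. For the subunits of the respiratory chain the direction was that of the mitochondrial genes. In flox tumours 35 of 37 tested complex I subunits, 9 of 9 of complex III, 12 of 13 of complex IV and 16 of 17 of complex V fell, and none rose. Their medians were −0.79, −1.01, −1.13 and −0.87, beside −0.90 for the mitochondrially encoded genes. In ΔIEC tumours 26, 9, 11 and 13 of these fell and 1 rose, with medians of −0.49, −0.72, −0.74 and −0.51, beside −0.47. Over all tested genes 19.7% fell in flox tumours and 15.5% in ΔIEC tumours. Taken over the 4 complexes, the median relative to all genes was −0.89 in flox mice, where that of the 13 mitochondrial genes was also −0.89. With all genes but small RNAs at a common total, 45 of the 76 nuclear subunits still fell in flox mice and 20 in ΔIEC mice. Of all 16970 genes 1516 and 1327 fell at that scaling.

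Examples show the size of the change in FPKM (mean ± SD, n = 3). Cox6a1, a subunit of complex IV, was at 344 ± 59.7 in flox adjacent tissue and 119 ± 5.34 in flox tumours, and at 343 ± 70.8 and 151 ± 17.3 in ΔIEC mice (limma adjusted p = 0.000351 and 0.00158). Cox7a1, of the same complex and best known from muscle, fell from 74.95 ± 11.8 to 13.9 ± 2.89 in flox mice (−2.36, limma adjusted p = 0.000412). Uqcrb, of complex III, went from 441 ± 35.2 to 178 ± 7.26 (−1.30, limma adjusted p = 0.000344), and Ndufb10, of complex I, from 78.5 ± 4.75 to 31.7 ± 0.971 (−1.28, limma adjusted p = 0.000291). Atp5k, of complex V, went from 81.1 ± 12.7 to 32.7 ± 1.74 (−1.27, limma adjusted p = 0.000453). Ndufa4 was the member that rose, in ΔIEC tumours (90.3 ± 11.2 to 164 ± 38.8, 0.83, limma adjusted p = 0.0131). It is named with complex I but is known as a component of complex IV.

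Genes that transcribe, process and copy the mitochondrial genome had medians close to that of all genes. Of 43 genes of mitochondrial transcription and RNA processing, 1 rose and 10 fell in flox tumours (median −0.08), and 3 rose and 4 fell in ΔIEC tumours (0.02). Over all genes 16.6% rose and 19.7% fell in flox tumours and 13.9% rose and 15.5% fell in ΔIEC tumours, so the falls in flox mice were near the background and the other counts below it. Fastk and Fastkd1, of a family that acts on the stability of mitochondrial messenger RNAs, fell in both genotypes: Fastkd1 from 12.3 ± 0.289 to 5.98 ± 0.588 FPKM in flox mice (SD, n = 3; −0.93, limma adjusted p = 0.000348). Trmt5, which methylates tRNAs, rose in both (0.35 and 0.58, limma adjusted p = 0.0222 and 0.00323). Of 12 genes of replication and maintenance, Ssbp1, which coats single-stranded mitochondrial DNA, rose in both genotypes (0.36 and 0.69, limma adjusted p = 0.0311 and 0.00261). Polg2, the accessory subunit of the mitochondrial DNA polymerase, fell in both (−0.99 and −0.81, limma adjusted p = 0.00447 and 0.0138), and Primpol fell in flox tumours (−0.82, limma adjusted p = 0.0130). In flox mice the calls of Ssbp1 (without any library but flox tumour 3), Trmt5 (without flox adjacent 3 or flox tumour 1 or 3) and Primpol (without flox adjacent 3) were lost. In ΔIEC mice that of Polg2 was lost without ΔIEC tumour 1, as was that of Ndufa4.

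Of 8 regulators of mitochondrial biogenesis, 2 fell in each genotype and none rose, a count too small to set against the background. Ppargc1b, a coactivator of respiratory genes, went from 27.2 ± 2.86 to 4.33 ± 0.310 FPKM in flox mice (SD, n = 3; −2.40, limma adjusted p = 0.000420) and from 26.6 ± 6.06 to 4.65 ± 2.67 in ΔIEC mice (−2.37, limma adjusted p = 0.000913). Esrra, a nuclear receptor that works with it, fell by 1.10 and 0.92 on the log2 scale (limma adjusted p = 0.00220 and 0.00727). The 78 proteins of the mitochondrial ribosome, which translates only the 13 messenger RNAs, had 21 falls and 1 rise in flox tumours (median −0.19) and 4 of each in ΔIEC tumours (−0.00). Of all genes 19.7% fell in flox tumours, somewhat less than of this list, and the other 3 counts were below their shares over all genes. Their direction depended on scaling, as did that of all genes. With nuclear protein-coding genes at a common total 3 fell and 11 rose in flox mice, and none fell and 26 rose in ΔIEC mice. Of all 16970 genes 1770 fell and 6254 rose in flox mice at that scaling, and 1496 fell and 4320 rose in ΔIEC mice. The rises are therefore not particular to this list. The lists of transcription, replication and biogenesis likewise had 25 rises and 7 falls in flox mice at that scaling, together. No member of any nuclear list was called between genotypes or in the interaction.

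**Figure D4:**
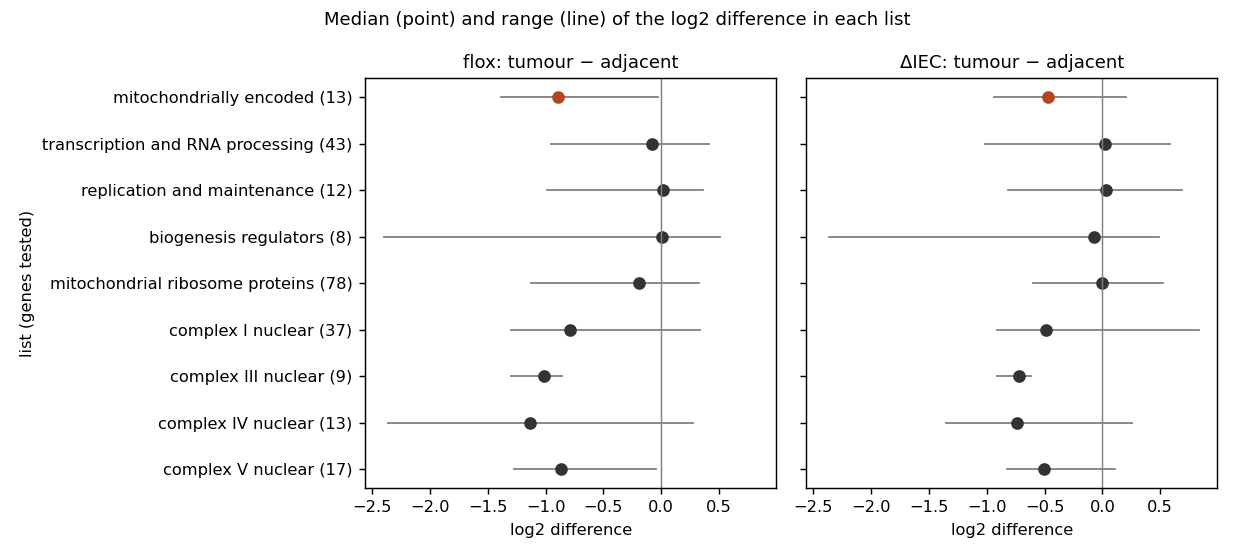
Median (point) and range (line) of the log2 difference between tumour and adjacent tissue for the 13 mitochondrially encoded genes (red) and 8 nuclear lists, with the number of genes tested. The 4 lists of respiratory chain subunits have medians from −0.79 to −1.13 in flox and from −0.49 to −0.74 in ΔIEC mice, near the −0.90 and −0.47 of the mitochondrial genes, and the other 4 lists lie between −0.19 and 0.03.

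Across the 12 libraries the nuclear genes most like the mitochondrial ones were in part their own copies. Likeness was Pearson's r between a gene's log2(FPKM + 1) and the mean of the 13 coding genes, over 12 libraries that share group, scaling and cell make-up, and is given as a description. The 5 highest were Gm13340 (0.957), Gm29216 (0.957), Upf3a (0.951), C730034F03Rik (0.949) and Gm28512 (0.949). Gm13340 and Gm29216 are the copies of mt-Co1 described above. Gm13340 was at 37.6, 53.0 and 52.5 FPKM in flox adjacent tissue, 68.6, 28.9 and 35.1 in ΔIEC adjacent tissue, 15.6, 16.9 and 22.1 in flox tumours and 28.2, 19.0 and 22.8 in ΔIEC tumours. Its highest and lowest libraries, ΔIEC adjacent 1 and flox tumour 1, were also those with the highest and lowest coding FPKM sum, 32748 and 10895. Adding the FPKM of each copy to the gene it matches left 9 coding genes called in flox and 2 in ΔIEC tumours.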

How the data were processed

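RNA of 12 samples was measured by strand-specific sequencing of total RNA, per the labels' protocols. FastQC, STAR 2.5, Cuffnorm and build GRCm38 are named in the submitters' processing notes; their settings, the annotation and the treatment of reads with several matches are given in none of the sources used here. The authors deposited log2(FPKM + 1) for each of 123062 transcripts, so depth is unknown and no count model was used.

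Columns were assigned by the code in each label's description. Of the transcripts 118004 (95.9%) matched GENCODE M21; the rest, 4.36% to 7.44% of a library's summed FPKM, were left out. FPKM was summed per gene. Libraries of a group correlated at 0.912 to 0.962. FPKM is relative: small RNA genes held 13.1% to 23.7% of a library's sum, and that share moves the FPKM of all other genes.

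limma 3.58.1 in R 4.3.3 (lmFit, contrasts.fit, eBayes with trend and robust; 1 mean per group, no block, 8 residual degrees of freedom, threshold 0.05) was fitted to log2(FPKM + 1), a pseudocount of 1, and tested on simulated data. Nuclear copies were found with blastn 2.17.0 against annotated transcripts, and exact copies by 50-base windows. All mitochondrial genes are named where described; of tRNAs, those with the highest means that were above 0. From each nuclear list and tumour comparison the rule names up to 2 called members per direction with the largest difference; some of these are left unnamed. The members, lists, markers and alternatives were chosen with earlier results of these data known. The marker lists were of epithelium, absorptive colonocytes, smooth muscle, fibroblasts, leukocytes, plasma cells, neutrophils, squamous epithelium and nuclear-retained RNA.

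Other settings tried were a filter at 5 FPKM or none, a pseudocount of 0.1, 2 rescalings, quantile normalization, replicate blocks, eBayes with neither trend nor robust, a fit to transcripts, a fit to the groups of a comparison alone, and leaving out each library. Adding the nuclear copies, leaving out the 6 low genes, and the alternatives for nuclear lists and genes were chosen after seeing the data.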

Additional observations from a re-analysis of the deposited data

How the results depend on the processing

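With FPKM values depth sets no interval, and calls in groups of 3 rest on the spread between few libraries. Fold changes of the 6 low genes are understated by the pseudocount. Those of 5 are also uncertain through nuclear copies, while no annotated copy covers a 50-base window of mt-Atp8. Leaving the 6 genes out left 7 and 2 coding genes called in flox and ΔIEC tumours. Scaling and single libraries both move the calls. In flox tumours 9 coding genes fell (median −0.90); this became 5 (−0.48) with quantile normalization, 5 (−0.48) with nuclear protein-coding genes rescaled and 1 (−0.42) with genes other than small RNAs rescaled. Over all genes 2982, 1770 and 1516 were called lower in these settings, beside 3346 as deposited. The rescalings by construction moved all genes of a library together, and the median of all genes went to 0.33 and 0.38. Under these settings mt-Nd1 was at 0.0277 (quantile) and mt-Atp8 at 0.34 and 0.39 (the 2 rescalings). mt-Nd3, not called as deposited, was among the 5 with quantile normalization (−0.81, limma adjusted p = 0.0373). With only the flox groups compared 11 coding genes were called, beside 37.2% of all genes. In ΔIEC tumours 2 fell (median −0.47); there were 0 without a filter, 0 with quantile normalization (median −0.0717), 1 with nuclear protein-coding genes rescaled (median −0.17), 0 with genes other than small RNAs rescaled, 1 with transcripts in place of genes and 0 with only the groups compared. Quantile normalization put the 2 called genes, mt-Co1 and mt-Nd4, at −0.0717 and −0.26, and mt-Rnr2 at 0.14, mt-Nd1 at 0.51, mt-Nd2 at 0.12, mt-Nd5 at 0.0337 and mt-Cytb at 0.27 in this comparison, and the rescalings put mt-Nd1 at 0.24 and 0.23 and mt-Nd2 at 0.0638 and 0.0573. Between genotypes, mt-Cytb in adjacent tissue was at 0.0191 with nuclear protein-coding genes rescaled, and mt-Nd3 in tumours was at 0.0247 with nuclear copies added. Quantile normalization assigns values by rank, which by construction limits the differences of mt-Co1 and mt-Rnr2, high in every library. Apart from the construction of the scalings, the cause was not tested.

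The share of FPKM from coding genes depends on its denominator: of nuclear protein-coding genes it was 5.29% and 4.92% in flox and ΔIEC adjacent tissue and 3.19% and 3.73% in their tumours, and of genes other than small RNAs 4.40%, 3.97%, 2.75% and 3.00%.

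Leaving out each library gave 6 to 8 calls in flox tumours and 0 to 6 in ΔIEC tumours. Over all genes 22.9% to 34.8% and 17.1% to 29.9% were called in these fits. The coding median in adjacent tissue by genotype ranged from −0.33 to 0.10, mt-Cytb there from −0.25 to 0.10 and mt-Rnr1 from −0.57 to 0.0281. mt-Nd3 by genotype in tumours ranged from −0.17 to 0.20, mt-Atp8 in flox tumours from −0.58 to 0.40, and in ΔIEC tumours mt-Nd1 from −0.23 to 0.18, mt-Rnr1 from −0.26 to 0.30 and mt-Atp8 from −0.19 to 0.56. mt-Nd4l in the interaction ranged from −0.51 to 0.21.

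Nuclear lists moved with scaling too, and so did the calls over all genes. With genes other than small RNAs rescaled, 1516 and 1327 of 16970 genes fell in flox and ΔIEC tumours, against 3346 and 2624 as deposited. Rises over all genes were 6052 and 3325 at that scaling, against 2817 and 2357 as deposited. They were 6254 and 4320 with nuclear protein-coding genes rescaled and 3091 and 2756 with quantile normalization. Of the 76 subunits of the 4 complexes, 72 fell in flox and 59 in ΔIEC tumours; with genes other than small RNAs rescaled 45 and 20 fell, and in ΔIEC mice 36 with quantile normalization and 30 with nuclear protein-coding genes rescaled. Of mitochondrial ribosome proteins in flox tumours (21 lower, 1 higher), 9 fell and 4 rose with quantile normalization, 3 fell and 11 rose with nuclear protein-coding genes rescaled, 1 fell and 14 rose with genes other than small RNAs rescaled, and 0 rose without a filter. In ΔIEC tumours (4 and 4) these settings gave 2 falls and 15 rises, 0 and 26, and 0 and 18; there were 2 falls without a filter, and 2 falls and 0 rises with only the groups compared. Of the lists of transcription, replication and biogenesis together, 14 fell and 2 rose in flox tumours, with 7 and 25 and then 6 and 20 under the 2 rescalings and 1 rise without a filter; in ΔIEC tumours (4 rises) there were 18 and 9 rises under the rescalings and 2 with only the groups compared. Leaving out each library, ribosome proteins had 13 to 22 falls and 0 to 1 rises in flox tumours and 1 to 5 falls and 2 to 10 rises in ΔIEC tumours; the other lists had 7 to 16 falls and 0 to 1 rises, and 2 to 7 rises in ΔIEC tumours.

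Replicate numbers of the titles were not taken as pairs. The description codes are shared by 3 flox and 2 ΔIEC pairs of the same number, but no label says what they mark. Same-numbered adjacent and tumour libraries deviated from their group means with correlations of −0.19 to 0.10 in flox and 0.05 to 0.19 in ΔIEC mice, and 3 of 6 adjacent libraries were closest to the tumour of their own number. With the number as a replicate block, 9 and 2 coding genes were called in flox and ΔIEC tumours, as without it; the balanced block cannot change a difference, only its error. Over all genes calls went from 6163 to 5387 and from 4981 to 4115. A block by the code of the description also gave 9 and 2. Among genes named singly, apart from left-out libraries, 902 of the values kept direction and side of the threshold, 54 lost and 3 gained a call, and 14 changed sign. With left-out libraries 495 kept both, 51 lost and 7 gained a call, and 17 changed sign. Genotype and interaction values were not called to begin with and could not lose a call, so these counts do not measure stability.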

Other observations

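Some values fall outside the comparisons. mt-Nd6, the light-strand gene, and mt-Nd5, which lies opposite it on the heavy strand and overlaps it by 14 bases, had FPKM of similar size in every library, with a ratio of 0.947 to 1.33. Their lowest ratios were in ΔIEC tumours 3 and 2 (0.947 and 0.979). The ratio of mt-Rnr2 to mt-Rnr1 was 15.8, 18.9 and 26.2 in flox adjacent tissue, 21.6, 23.6 and 15.9 in ΔIEC adjacent tissue, 21.7, 19.2 and 19.0 in flox tumours and 14.7, 14.6 and 15.8 in ΔIEC tumours. The ΔIEC tumours were alike and below the lowest library of every other group, which was seen in the data and was not tested. mt-Rnr2 was at least as high as mt-Co1 in 11 of 12 libraries, from 0.997 to 1.48 times its FPKM in adjacent tissue and from 1.46 to 1.94 times in tumours.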
